A study of Homo sapiens with 12 samples.

Results

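The genes described here control the exit from G1: 6 inhibitors of cyclin-dependent kinases (CDKN1B, CDKN1C, CDKN2A, CDKN2B, CDKN2C and CDKN2D), 3 pocket proteins (RB1, RBL1 and RBL2) and cyclin D1 (CCND1). The members were the rows whose Ensembl identifiers map to these 10 symbols, with CDKN1A left out by the rule, and they made up 10 of the 60607 gene rows in the count table. Messenger RNA was sequenced in 12 libraries of AC16, a human ventricular cell line labelled wild type and cardiomyocyte, with 3 libraries in each of 4 groups. One group was the control, with DMEM given as its treatment. The other groups received 0.1 µM doxorubicin, an anthracycline that poisons topoisomerase II, for 2, 4 or 6 days before harvest. In the titles these exposures appear as 48, 96 and 112 hours, and each title also carries the words Day6, so the last group is called day 6 here although 112 hours is shorter than 6 days. AC16 was made by fusing ventricular cells with fibroblasts transformed by SV40, whose large T antigen binds the pocket proteins. The viral transcript was not analysed here. No label states that the replicates of a group were cultured separately, and p-values therefore measure the spread between these libraries only, which may be technical.

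The gap phase before DNA synthesis is controlled by a chain of these proteins. Cyclin D1 activates CDK4 and CDK6, which phosphorylate the retinoblastoma protein RB1 and its relatives p107 (RBL1) and p130 (RBL2), and the phosphorylated pocket proteins release E2F factors that switch on S phase genes. The INK4 proteins p16 (CDKN2A), p15 (CDKN2B), p18 (CDKN2C) and p19 (CDKN2D) bind CDK4 and CDK6. The CIP/KIP proteins p21 (CDKN1A), p27 (CDKN1B) and p57 (CDKN1C) act mainly on complexes with CDK2. p130 with E2F4 and the MuvB core forms DREAM, a repressor of cell cycle genes in resting cells. In the adult heart, cardiomyocytes have left the cycle, and p21 and p16 are widely used as marks of senescence there. Most of these proteins are also controlled by phosphorylation and degradation, which transcript counts do not show.

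Library totals ran from 14835743 to 21226441 counts, and mitochondrial transcripts took 5.51% to 8.34% of them. Control replicate 2 stood apart from the other controls in that share (8.26% against 6.01% and 6.75%), and day 2 replicate 3 from the other day 2 libraries (5.51% against 7.62% and 7.74%). Control replicate 2 also had the lowest RB1, RBL1 and RBL2 and the highest CDKN2A of its group, and results on the members that turn on it are given with and without it. For genes outside the members, no values without it are given. Of 10 cardiomyocyte markers, 1 (GATA4) reached 1 CPM (counts scaled to a common library size with TMM factors) in each group, the 10 summed to 6.36 to 9.02 CPM over all libraries, and the ventricular myosin light chain MYL2 had 0 counts throughout. All 8 fibroblast markers were present and summed to 7632 to 8359 CPM in controls, 11550 to 11880 at day 2, 9943 to 10450 at day 4 and 8487 to 8941 at day 6. The defining markers therefore went against the cardiomyocyte label. Smooth muscle markers (4 of 5 present in controls and 3 of 5 in treated groups) summed to 140 to 164 CPM in controls, 291 to 325 at day 2, 223 to 234 at day 4 and 194 to 212 at day 6. The 5 endothelial markers stayed at 4.58 to 7.87 CPM in all libraries, and the 5 leukocyte markers went from 3.77 to 5.79 in controls to at most 12.8 at day 6. Whether these shifts have a part in the results on the members was not tested. CDKN1A, which encodes p21, rose 11.6-fold, 7.35-fold and 8.31-fold at days 2, 4 and 6, while the proliferation antigen MKI67 fell from 1157 ± 48.2 CPM (SD, n = 3) to 405 ± 22.9 at day 6.

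CCND1 rose at each exposure, and CDKN1B, CDKN2C and RBL1 fell at each. CDKN2A and CDKN2B fell at days 4 and 6, CDKN2D fell at days 2 and 6, RBL2 fell at day 2 and rose at days 4 and 6, and RB1 passed no test against the control. Across the 17320 genes with enough counts to test, 9 members were tested, and CDKN1C was not. At day 2, 1 member rose and 5 fell of 9, while 23.8% of all genes tested rose and 23.4% fell. At day 4, 2 rose and 5 fell, against 18.8% and 17.7% of all genes. At day 6, 2 rose and 6 fell, against 22.0% and 21.7%. The median log2 fold change of the tested members was -0.42, -0.32 and -0.79 at days 2, 4 and 6, and that of all genes was -0.013, -0.003 and -0.006. A gene counts as risen or fallen at a Benjamini-Hochberg adjusted p under 0.05 in edgeR's quasi-likelihood test. The 3 comparisons share the control libraries, so they are not independent of each other. RNA was taken from whole cultures, in which fewer cells of a type and less RNA per cell cannot be told apart.

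**Figure D1:**
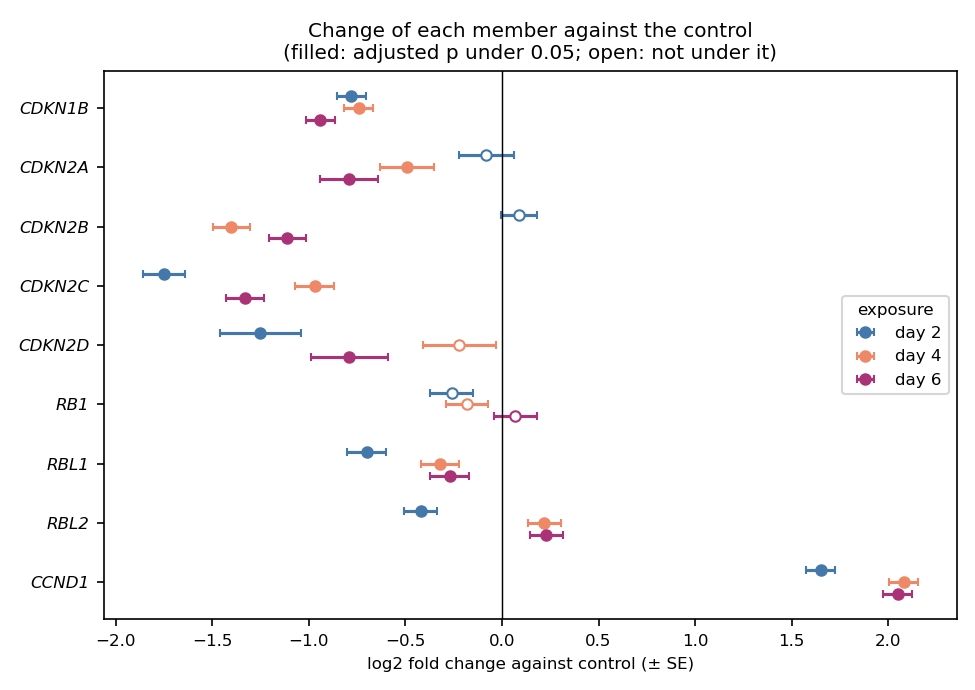
Log2 fold change of the 9 tested members against the control at days 2, 4 and 6, with bars of 1 standard error from the edgeR fit and filled points for an adjusted p under 0.05. CCND1 stands above 1.6 at each exposure, and CDKN1B and CDKN2C stand below 0 at each. RB1 runs from -0.26 at day 2 to 0.07 at day 6, with open points.

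Between exposures, the members split. Each group is a separate set of libraries, so a rise or fall between exposures is a difference between groups. It is not a course followed in the same culture, and all exposures share the same control group. From day 2 to day 4, 5 rose (CDKN2C, CDKN2D, RBL1, RBL2 and CCND1) and 2 fell (CDKN2A and CDKN2B), where 16.3% of all genes rose and 18.5% fell. From day 2 to day 6, 5 rose (CDKN2C, RB1, RBL1, RBL2 and CCND1) and the same pair of INK4 genes fell, against 19.8% and 23.0% of all genes. From day 4 to day 6, 0 rose and 1 fell (CDKN2C), where 3.05% of all genes rose and 3.73% fell. By edgeR, 2 members were higher at day 6 than at day 4 at an unadjusted p under 0.05 (CDKN2B and RB1), and DESeq2 called CDKN2C alone. Without control replicate 2 and day 2 replicate 3, an alternative chosen after seeing the data, 7 members changed at each of days 2, 4 and 6 against the control and 4 between days 4 and 6. All 9 tested members differed somewhere among the 4 groups, a result that 63.4% of all tested genes shared. Scaling by library totals alone shifted the balance over all genes at day 2 to 3203 higher and 5386 lower (4122 and 4058 with TMM), with a median of -0.136. The corresponding splits were 3842 and 2443 for day 4 against day 2 (2828 and 3203 with TMM), 1006 and 350 for day 6 against day 4 (528 and 646), and 5265 and 2538 for day 6 against day 2 (3437 and 3977). The median over all genes was then 0.091, 0.074 and 0.162 in these 3 comparisons. No difference of a member that passed its test changed direction under this scaling. Differences that did not pass could change sign, as for CDKN2B at day 2 against the control (0.09 with TMM and -0.04 with library totals).

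CDKN1B encodes p27, which stops CDK2 and also helps cyclin D bind CDK4. The gene lies on chromosome 12 from 12715058 to 12722371 on the plus strand (GRCh38, GENCODE release 29, as for the other positions). Its level was 148, 144 and 138 CPM in the 3 controls, 82.9, 86.0 and 81.1 at day 2, 89.0, 88.2 and 79.8 at day 4, and 75.9, 74.4 and 74.0 at day 6. Every treated library lay below every control. The falls were 1.72-fold (log2 -0.78 ± 0.075, SE; adjusted p = 4.97e-09), 1.67-fold (-0.74 ± 0.075; 2.06e-08) and 1.91-fold (-0.94 ± 0.075; 2.45e-10) at days 2, 4 and 6. No 2 exposures differed from each other past the threshold: day 6 was lower than day 2 by -0.16 ± 0.075 on the log2 scale (adjusted p = 0.0995).

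CDKN1C, an imprinted gene for the inhibitor p57 on chromosome 11 from 2883213 to 2885773 (minus strand), was hardly counted. It had 3, 0 and 2 counts in the controls, 0, 1 and 0 at day 2, and 0 in all 6 libraries of days 4 and 6. With a limit of 3 counts over a group, a count of 0 allowed up to 0.057 CPM at day 4 and 0.0531 CPM at day 6, counting error only. No change was detectable at this depth.

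The INK4 genes did not move as a group. CDKN2B and CDKN2A lie next to each other on chromosome 9, on the minus strand, at 22002903 to 22009363 and 21967753 to 21995301. CDKN2C is on chromosome 1 (50960745 to 50974633, plus strand) and CDKN2D on chromosome 19 (10566462 to 10569059, minus strand). CDKN2C and CDKN2D had their lowest means at day 2, when CDKN2A and CDKN2B had not passed the test. For CDKN2D, days 2 and 6 overlapped and their difference did not pass (adjusted p = 0.0927). At day 6 all 4 were below the control.

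CDKN2B, the p15 gene that TGF-beta induces in epithelial cells, held 101, 91.7 and 94.2 CPM in controls and 97.2, 117 and 91.7 at day 2. It then stood at 37.7, 39.2 and 32.2 CPM at day 4 and at 41.9, 47.3 and 44.0 at day 6. The day 2 libraries overlapped the controls, and all libraries of days 4 and 6 lay below both. The log2 difference from the control was 0.09 ± 0.093 at day 2 (adjusted p = 0.463), -1.40 ± 0.098 at day 4 (2.78e-11) and -1.11 ± 0.096 at day 6 (1.04e-09). Day 4 was 2.80-fold below day 2 (log2 -1.49 ± 0.098, adjusted p = 2.24e-11). The difference of day 6 from day 4, 0.29 ± 0.098, missed the threshold (adjusted p = 0.0785), although the libraries of the 2 groups did not overlap; it passed when those groups were fitted alone (0.0309) and with library totals (0.0233).

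CDKN2A encodes p16 and, from another first exon, the p53 regulator ARF, and the deposited gene counts do not separate their transcripts. It held 106, 139 and 113 CPM in controls, 107, 145 and 88.5 at day 2, 76.2, 87.7 and 90.8 at day 4, and 69.6, 64.0 and 73.4 at day 6. The day 2 range enclosed the control range, and no library of day 4 or day 6 reached a control. At day 2 the log2 difference was -0.08 ± 0.14 (adjusted p = 0.698), at day 4 -0.49 ± 0.14 (0.0142) and at day 6 -0.79 ± 0.15 (0.000361), the last a 1.73-fold fall. The day 4 call was lost without control replicate 2 (-0.37, adjusted p = 0.0984) and without day 4 replicate 1 (0.0528). The fall from day 2 to day 4 (-0.42 ± 0.14, adjusted p = 0.0357, ranges overlapping) was -0.21 without day 2 replicate 2 (0.171); leaving out day 4 replicate 1, 2 or 3 gave 0.117, 0.0574 and 0.0512, and library totals or the compared groups alone gave 0.0865 and 0.118. Day 6 was below day 4 by -0.30 ± 0.15 (adjusted p = 0.257), and this difference passed with those groups fitted alone (0.0208). The antisense gene CDKN2B-AS1 shares 341 exon bases with CDKN2A on the opposite strand. Whether counting used the strand is not known here, so how reads from the shared bases were assigned is not known either. CDKN2B-AS1 itself held 18.0 ± 5.00 CPM in controls and 9.80 ± 2.42, 14.3 ± 2.37 and 15.6 ± 1.30 at days 2, 4 and 6.

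CDKN2C, the p18 gene, held 39.3, 41.2 and 44.1 CPM in controls, 12.4, 12.3 and 12.4 at day 2, 22.3, 20.1 and 21.1 at day 4, and 18.4, 14.4 and 16.8 at day 6. The 4 groups did not overlap at any point. Its falls were 3.36-fold (log2 -1.75 ± 0.11, adjusted p = 1.21e-12), 1.96-fold (-0.97 ± 0.10; 3.24e-08) and 2.51-fold (-1.33 ± 0.10; 1.13e-10) at days 2, 4 and 6. From day 2 to day 4 it rose 1.71-fold (0.78 ± 0.11, adjusted p = 4.02e-06), and at day 6 it was still 1.33-fold above day 2 (0.42 ± 0.11; 0.00349). The fall from day 4 to day 6 was -0.36 ± 0.10 (adjusted p = 0.038). That call was lost without day 4 replicate 1, 2 or 3 (0.162, 0.057 and 0.087), without day 6 replicate 2 or 3 (0.214 and 0.0774), with library totals (0.101) and with no low-count filter (0.0795).

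CDKN2D, the p19 gene, had the lowest CPM of the tested members, also per kilobase. Controls held 6.19, 7.49 and 5.15 CPM, day 2 held 2.57, 2.94 and 2.40, day 4 held 4.64, 5.22 and 6.26, and day 6 held 2.56, 4.41 and 3.84, from 40 to 114 counts per library. Day 2 and day 6 lay wholly below the controls, and day 4 overlapped them. The log2 differences were -1.25 ± 0.21 (adjusted p = 2.66e-05), -0.22 ± 0.19 (0.397) and -0.79 ± 0.20 (0.00244) at days 2, 4 and 6. Day 4 was 2.04-fold above day 2 (1.03 ± 0.21, adjusted p = 0.000473). Day 6 against day 2 was 0.46 ± 0.22 (0.0927), and it passed without day 6 replicate 1 (0.65, adjusted p = 0.026) and with library totals (0.0233).

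CCND1, the partner that INK4 proteins keep from CDK4 and CDK6, lies on chromosome 11 from 69641087 to 69654474 on the plus strand. It held 183, 186 and 174 CPM in controls, 583, 531 and 594 at day 2, 755, 742 and 796 at day 4, and 752, 754 and 748 at day 6. Every treated library lay above every control, and every library of days 4 and 6 above day 2. The rises were 3.14-fold (log2 1.65 ± 0.074, adjusted p = 3.1e-15), 4.22-fold (2.08 ± 0.075; 1.3e-16) and 4.14-fold (2.05 ± 0.075; 7.45e-17). Day 4 was 1.34-fold above day 2 (0.42 ± 0.071, adjusted p = 4.6e-05), and day 6 differed from day 4 by -0.03 ± 0.071 (0.886). LTO1, a neighbour on the opposite strand that shares 497 exon bases with CCND1, held 15.8 ± 2.02 CPM in controls and at most 24.6 in any treated library.

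**Figure D2:**
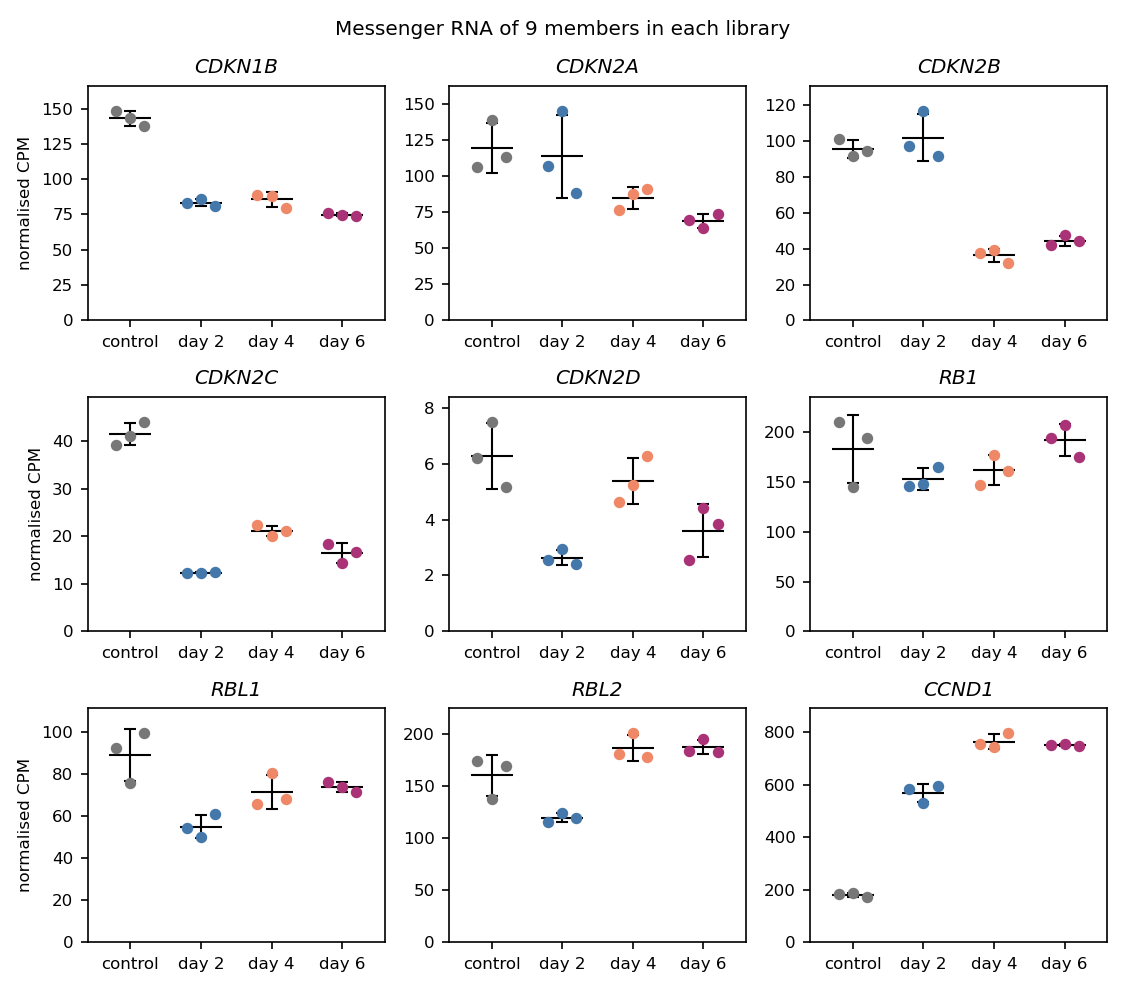
Normalised CPM of the 9 tested members in each of the 12 libraries (points), with the group mean and bars of 1 SD (n = 3); each panel has its own axis from 0. CCND1 rises from 174 to 186 in controls to at least 531 in treated libraries, CDKN2B drops between day 2 and day 4, and CDKN2C is lowest at day 2.

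The pocket protein genes moved less, by at most 1.62-fold against the control. RB1 is on chromosome 13 (48303726 to 48599436, plus strand), RBL1 on chromosome 20 (36996349 to 37095995, minus strand) and RBL2 on chromosome 16 (53433977 to 53491649, plus strand). RBL1 fell at each exposure, RBL2 fell and then rose, and RB1 passed no test against the control. The promoters of RBL1 and RBL2 are printed because their calls against the control differed at the longer exposures. RBL1 was lower there and RBL2 higher, and the calls of both genes were lost in some alternative fits. The RBL2 rises were lost without its lowest control library. Both genes fell at the shortest exposure, and both rose from it to each longer exposure. RBL1 is known as an E2F target gene, and p130 as the pocket protein of resting cells. Whether the motifs below have a part in these courses was not tested. Each is the RefSeq window (GRCh38.p14) of 250 bases before to 50 bases after a start, RBL1 at chr20:37095948-37096247 (minus strand) and RBL2 at chr16:53434221-53434520 (plus strand), 5′ to 3′. Capitals mark E2F motif letters in RBL1 and the CHR motif TTTGAA, known to be bound by MuvB complexes, in RBL2.
RBL1: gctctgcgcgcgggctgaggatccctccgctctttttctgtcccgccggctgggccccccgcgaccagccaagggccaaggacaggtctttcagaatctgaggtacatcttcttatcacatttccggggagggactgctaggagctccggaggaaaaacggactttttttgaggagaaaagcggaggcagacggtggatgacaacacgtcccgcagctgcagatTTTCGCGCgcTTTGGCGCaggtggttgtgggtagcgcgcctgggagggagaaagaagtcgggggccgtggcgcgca
RBL2: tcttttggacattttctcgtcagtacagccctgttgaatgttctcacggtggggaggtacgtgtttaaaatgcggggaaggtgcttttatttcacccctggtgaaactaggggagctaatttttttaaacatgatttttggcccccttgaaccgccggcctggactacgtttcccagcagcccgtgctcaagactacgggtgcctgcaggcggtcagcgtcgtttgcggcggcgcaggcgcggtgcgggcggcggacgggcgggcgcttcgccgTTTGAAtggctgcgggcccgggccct
The E2F letters searched were TTTCCCGC, TTTGGCGC, TTTCGCGC and TTTGCCGC on both strands, and at least 1 of them stood in 3.31% of 35116 windows of this length. In RBL1, TTTCGCGC begins 26 bases and TTTGGCGC 16 bases before the start, without overlap. TTTGAA stood in 15.2% of all windows, and in RBL2 it begins at base 25 from the start. RefSeq windows matched 8 members, with 12 windows in all; CDKN1C and CCND1 had no entry. Of the 12, 1 held an E2F motif (RBL1), 1 held TTTGAA (RBL2) and 4 held CCAAT (CDKN1B, CDKN2C, CDKN2D and a further start of RBL2), the last found in 34.6% of all windows. For RB1 the only window, chr13:48476200-48476499, lies inside the gene. The region around the annotated start of RB1 at 48303726 was therefore not searched. CDKN1B held 3 CCAAT matches, at 174 and 50 bases before the start and 31 after it.

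RBL1 held 92.8, 75.7 and 99.7 CPM in controls, 54.3, 50.2 and 61.0 at day 2, 65.9, 80.9 and 68.2 at day 4, and 76.6, 74.1 and 71.4 at day 6. Only day 2 lay wholly below the controls. The falls were 1.62-fold at day 2 (log2 -0.70 ± 0.10, adjusted p = 3.8e-06), 1.25-fold at day 4 (-0.32 ± 0.10; 0.0144) and 1.21-fold at day 6 (-0.27 ± 0.10; 0.0297). The day 4 call was lost without control replicate 3 (0.106), day 4 replicate 1 (0.0859) or day 4 replicate 3 (0.0638). The day 6 call was lost without control replicate 1 (0.08) or 3 (0.174), day 6 replicate 2 (0.0689) or 3 (0.0921), with library totals (0.057) and with the compared groups alone (0.0512). From day 2, RBL1 rose 1.30-fold to day 4 (0.38 ± 0.10, adjusted p = 0.00532, and 0.0611 without day 4 replicate 2) and 1.34-fold to day 6 (0.42 ± 0.10; 0.00156).

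RBL2 held 174, 138 and 170 CPM in controls, 115, 124 and 119 at day 2, 181, 201 and 178 at day 4, and 184, 196 and 183 at day 6. Day 2 lay below every control, and days 4 and 6 lay above every control by a small margin. At day 2 the fall was 1.34-fold (log2 -0.42 ± 0.085, adjusted p = 0.000225). From day 2 it rose 1.56-fold to day 4 (0.64 ± 0.085; 2.02e-06) and 1.57-fold to day 6 (0.65 ± 0.085; 1.24e-06). The rises over the control were 0.22 ± 0.085 at day 4 (adjusted p = 0.0464) and 0.23 ± 0.084 at day 6 (0.0335). Without control replicate 2, the lowest control, they were 0.12 (adjusted p = 0.237) and 0.13 (0.198). The day 4 call was also lost without day 4 replicate 1 (0.0655) or 2 (0.19), with library totals (0.0981), 1 CPM as the minimum (0.0569), no filter (0.0736) or the compared groups alone (0.111), and the day 6 call without day 6 replicate 1 (0.059), 2 (0.122) or 3 (0.0506). AKTIP shares 610 exon bases with RBL2 on the opposite strand and held 18.8 ± 1.69 CPM in controls against 22.5 ± 0.606 at day 4 and 22.6 ± 1.55 at day 6. AKTIP also rose over the control at days 4 and 6 (0.27 ± 0.10 at each, adjusted p = 0.0452 and 0.034). At day 2 it was not called (-0.10 ± 0.10, adjusted p = 0.438). How reads from the shared bases were assigned is not known.

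RB1 held 210, 145 and 195 CPM in controls, 146, 148 and 166 at day 2, 147, 177 and 162 at day 4, and 194, 207 and 175 at day 6. Every treated group overlapped the controls, whose own range was the widest of the 4. The log2 differences were -0.26 ± 0.11 (adjusted p = 0.0512), -0.18 ± 0.11 (0.202) and 0.07 ± 0.11 (0.651) at days 2, 4 and 6. Without control replicate 2 the day 2 and day 4 differences were -0.41 (adjusted p = 0.000207) and -0.32 (0.00349), and without day 2 replicate 3 the day 2 adjusted p was 0.0339. Day 2 also passed with library totals (-0.38, 0.00477), with no filter (0.0248) and with 1 CPM as the minimum (0.0478). Day 6 was 1.25-fold above day 2 with no overlap (0.33 ± 0.11, adjusted p = 0.0173), a call lost without day 2 replicate 1 (0.0721) or 2 (0.0677) or day 6 replicate 2 (0.0845). Day 6 against day 4 was 0.25 ± 0.11 (0.182), and passed with those groups fitted alone (0.026). The test for any difference among the groups gave an adjusted p of 0.0334, which left the threshold on removal of control replicate 3 (0.0571), day 2 replicate 1 (0.0943) or 2 (0.0945), day 4 replicate 1 (0.0516), or day 6 replicate 1 (0.0735) or 2 (0.0974).

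Levels of different genes were compared as CPM per kilobase of exon. Among the 10 members, CDKN1B was highest in controls at 50.9 ± 1.86, then CCND1 at 37.5 ± 1.35, RB1 at 28.4 ± 5.25, CDKN2A at 27.6 ± 3.95, CDKN2B at 23.6 ± 1.23, RBL2 at 21.9 ± 2.67, RBL1 at 15.0 ± 2.07, CDKN2C at 12.5 ± 0.717 and CDKN2D at 4.18 ± 0.778. The ranges of neighbours overlapped from RB1 through RBL2 and between RBL1 and CDKN2C. At day 2 CCND1 led at 118 ± 6.93, and CDKN1B, CDKN2A, CDKN2B and RB1 followed between 29.6 and 23.8 with overlapping neighbours. At day 4 CCND1 stood at 158 ± 5.91 and CDKN1B at 30.5 ± 1.81, ahead of RBL2 and RB1, which overlapped at 25.5 ± 1.71 and 25.1 ± 2.35. CDKN2B had moved below RBL1 by then, at 8.96 ± 0.911 against 12.0 ± 1.35. At day 6 the order was CCND1 at 156 ± 0.608, RB1 at 29.8 ± 2.48, CDKN1B at 26.6 ± 0.351 and RBL2 at 25.6 ± 0.961, the last pair overlapping, and then CDKN2A, RBL1, CDKN2B, CDKN2C and CDKN2D without overlap.

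CDKN1A changed the makeup of the inhibitors as a class. Of the summed CPM per kilobase of the 7 CIP/KIP and INK4 genes, CDKN1A took 35.8%, 37.7% and 32.0% in controls, 89.6%, 89.5% and 90.1% at day 2, 87.1%, 87.6% and 87.4% at day 4, and 89.0%, 90.0% and 90.4% at day 6. The level of the rest was lower as well. The other 6 inhibitors summed to 119 ± 4.05 CPM per kilobase in controls, 86.4 ± 10.9 at day 2, 69.0 ± 1.61 at day 4 and 60.9 ± 0.801 at day 6. CDKN1B took 27.8% ± 1.71 of the inhibitor total in controls and 4.46% ± 0.422 at day 6, and CDKN2A 15.0% ± 1.48 and 2.67% ± 0.241. These shares are of transcripts, were not tested, and rest on exon lengths that count all annotated exons.

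**Figure D3:**
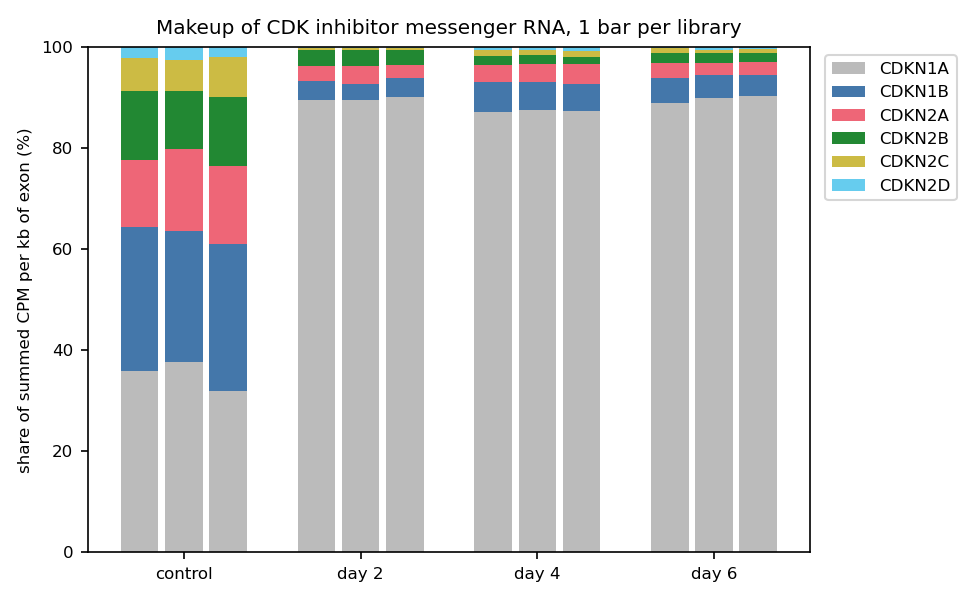
Share of each CDK inhibitor in the summed CPM per kilobase of the 7 inhibitor genes, in percent, with 1 stacked bar for each of the 12 libraries; CDKN1C, at most 0.0373%, is too small to draw. CDKN1A (grey) takes 32.0% to 37.7% in controls and 87.1% to 90.4% in treated libraries.

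Ratios of members within a library do not depend on the scaling between libraries. Per kilobase, CCND1 was 0.72 to 0.756 of CDKN1B in controls, 3.59 to 4.26 times it at day 2, 4.89 to 5.81 at day 4 and 5.76 to 5.89 at day 6. CCND1 to CDKN2A went from 1.20 to 1.54 in controls through 3.29 to 6.02 and 7.58 to 8.88 to 9.13 to 10.6 at day 6. The activator of CDK4 and CDK6 stood higher against p27 and p16/ARF transcripts in every treated library than in any control. CDKN2A to CDKN2B was 0.985 to 1.42 in controls and 0.904 to 1.16 at day 2, then 1.89 to 2.65 at day 4 and 1.27 to 1.56 at day 6, so that only the day 4 libraries lay clear of the controls. RBL2 to RBL1 was 1.38 to 1.52 in controls, and 1.59 to 2.02, 2.02 to 2.23 and 1.95 to 2.15 at days 2, 4 and 6, above the controls in all 9 treated libraries. RBL2 to RB1 was 0.728 to 0.836 in controls, 0.635 to 0.741 at day 2, 0.973 to 1.08 at day 4 and 0.832 to 0.921 at day 6. Ratios are descriptions, with no test.

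**Figure D4:**
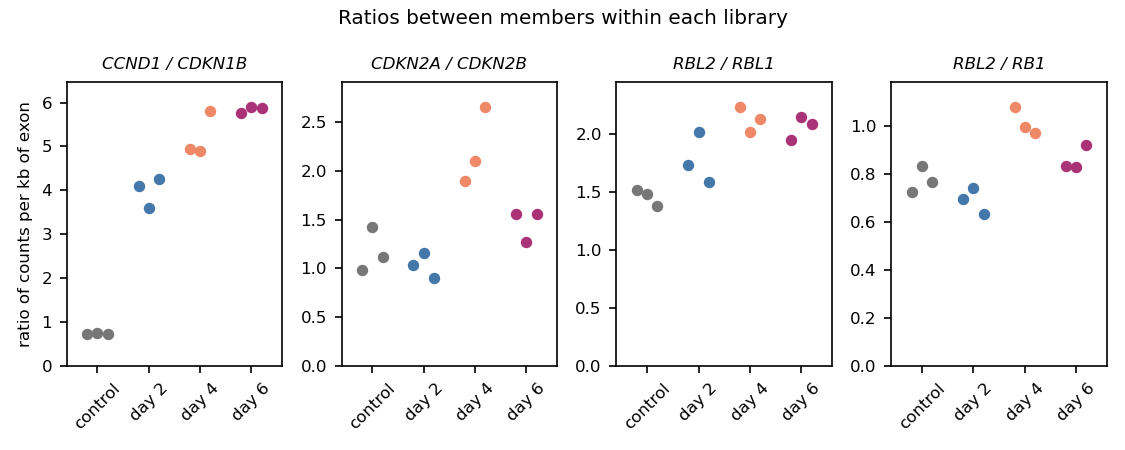
Ratio of CPM per kilobase between pairs of members in each of the 12 libraries, 3 points per group, each panel on its own linear axis from 0. CCND1 over CDKN1B lies at or below 0.756 in controls and at or above 3.59 in treated libraries, and CDKN2A over CDKN2B peaks at day 4.

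Genes around the members were taken from lists, to be read against all genes tested, of which 23.8%, 18.8% and 22.0% rose and 23.4%, 17.7% and 21.7% fell at days 2, 4 and 6, with medians of -0.013, -0.003 and -0.006. The lists were chosen with earlier results of these data known, so this comparison is descriptive and not independent of the data. Of 9 G1 cyclins and kinases, 4 rose and 5 fell at day 2, 5 and 3 at day 4, and 4 and 3 at day 6, with medians of -0.50, 0.54 and 0.31. The 2 kinases that cyclin D1 binds moved apart: CDK6 rose from 114 ± 25.2 CPM to 287 ± 29.4 at day 2 (log2 1.33 ± 0.13, adjusted p = 1.07e-07) and was 0.31 ± 0.13 above the control at day 6 (0.061), while CDK4 fell at each exposure, by 0.71, 0.67 and 0.50 on the log2 scale. Control replicate 2 held the lowest CDK6 of the controls, at 85.8 CPM against 134 and 122. Cyclin E2 (CCNE2), an activator of CDK2, fell from 40.7 to 9.66 CPM at day 2 (-2.06 ± 0.16, adjusted p = 1.39e-09) and was at 35.1 and 41.2 CPM at days 4 and 6, which did not pass. Cyclin A2 (CCNA2), which works in S phase and G2, fell at each exposure, by 1.27, 1.00 and 1.51.

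Below the pocket proteins, 20 E2F target genes of G1/S held 1 rise and 16 falls at day 2, 2 and 13 at day 4, and 2 and 11 at day 6, with medians of -0.57, -0.39 and -0.28. RRM2, a ribonucleotide reductase subunit, fell from 699 to 321 CPM at day 2 (-1.12 ± 0.075) and stood at 657 and 630 at days 4 and 6 (adjusted p = 0.38 and 0.111). The helicase gene MCM6 fell at each exposure (-1.27, -1.15 and -0.78), as did the polymerase gene POLA1 (-0.76, -0.77 and -0.37). Of 10 E2F and DP factors, 1 rose and 7 fell at day 2, and 1 rose and 5 fell at days 4 and 6, with medians of -0.50, -0.18 and -0.24. The riser was E2F7, a repressor, from 110 CPM to 292, 160 and 190 (log2 1.41, 0.54 and 0.79), while the repressor E2F8 fell (-1.18, -0.66 and -0.34) and the activator E2F1 fell at days 2 and 4 (-0.90 and -0.41). Among 8 genes around DREAM, which were MuvB core subunits, the factors MYBL2 and FOXM1 that bind MuvB later in the cycle, and the kinase gene DYRK1A, 0 rose and 5, 6 and 5 fell, with medians of -0.43, -0.36 and -0.36. By edgeR, 0 of the 8 were higher at an unadjusted p under 0.05 at any exposure. FOXM1, which drives G2 and M genes, fell by 0.95, 0.67 and 1.05, and DYRK1A, whose kinase prompts DREAM assembly, by 0.29, 0.43 and 0.63. CCNE1, CCNE2, E2F1 and CDC25A each stand in 2 of these lists.

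Of 11 genes for p27 turnover and CDK2 activation, 1 rose and 4 fell at day 2, 1 and 5 at day 4, and 0 and 7 at day 6, with medians of -0.05, -0.19 and -0.30. At day 6, 0 of the 11 were higher at an unadjusted p under 0.05 in edgeR. SKP2, the F-box protein that marks p27 for degradation, fell from 158 ± 11.9 CPM to 94.7 ± 4.90, 86.7 ± 4.78 and 84.8 ± 3.42, with log2 changes of -0.74, -0.87 and -0.90. CKS2, from the family of small CDK-binding proteins, fell further, from 137 ± 12.1 to 45.8 ± 2.84 CPM at day 6 (-1.58 ± 0.088, adjusted p = 2.51e-13). Of 7 genes for the turnover of cyclin D1 and p27 by other routes, 2 rose and 3 fell at day 2, and 1 rose and 1 fell at days 4 and 6, with medians of -0.10, -0.07 and 0.08. The smallest p of the any-difference test in this list belonged to FBXW7, which rose at day 2 (0.80 ± 0.093, adjusted p = 1.1e-07). FBXO4 came next and fell at day 2 (-0.53 ± 0.16, adjusted p = 0.0098). Neither FBXW7 nor FBXO4 passed at day 4 or day 6. AMBRA1, an adaptor for the degradation of D cyclins, rose at each exposure by 0.39, 0.30 and 0.39, and GSK3B, a kinase that phosphorylates cyclin D1, fell by 0.22, 0.24 and 0.27. Of 9 FOXO factors and other p27 inducers, 6 rose and 3 fell at day 2, and 1 rose and 4 fell at days 4 and 6, with medians of 0.31, -0.05 and -0.10. SMAD3, which carries TGF-beta signals, rose at each exposure (0.94, 0.67 and 0.80), FOXO4 fell at each (-0.63, -0.70 and -0.80), and KLF4 rose 1.32 at day 2 and stood at -0.75 and -0.62 at days 4 and 6, both past the threshold. FOXO3, at 102 CPM in controls against 19.7 for FOXO4, rose at day 2 (0.48 ± 0.079, adjusted p = 1.79e-05). It did not pass at day 4 (0.331) or day 6 (0.304).

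Among 17 Polycomb repressors of the INK4 locus and their opponents, 5 rose and 8 fell at day 2, 2 and 8 at day 4, and 2 and 11 at day 6, with medians of -0.21, -0.35 and -0.34. EZH2, the methyltransferase of Polycomb complex PRC2, fell from 70.9 ± 3.74 CPM to 33.4 ± 2.55 at day 2, and then stood at 55.7 ± 0.932 and 57.1 ± 1.25 (-1.08, -0.35 and -0.31). CBX7, a PRC1 subunit that binds the mark EZH2 makes, held 9.29 ± 0.493 CPM in controls and 3.00 ± 0.228 at day 2 (-1.63 ± 0.17, adjusted p = 2.44e-08). At day 6 it held 9.77 ± 0.272 (0.07 ± 0.15, adjusted p = 0.72). ETS2, an activator of p16 transcription, rose at days 2 and 4 (0.69 and 0.20). JARID2, also in this list, changed by 0.56, -0.36 and -0.59 on the log2 scale at days 2, 4 and 6, each past the threshold. HMGA2, a chromatin protein known to repress the INK4a/ARF locus in stem cells, is outside this list and came from a separate list of arrest genes. Of the 8 genes in that separate list, 3 rose and 4 fell at day 2, and 3 rose and 3 fell at days 4 and 6. HMGA2 rose from 127 ± 13.3 CPM to 231 ± 16.2, 401 ± 9.19 and 485 ± 19.5 (log2 0.87, 1.66 and 1.94), while LMNB1 from the same list fell (-2.13, -1.41 and -1.49). Whether HMGA2 has a part in the course of CDKN2A was not tested. None of these lists was tested as a set, and each shares the control libraries with the members.

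**Figure D5:**
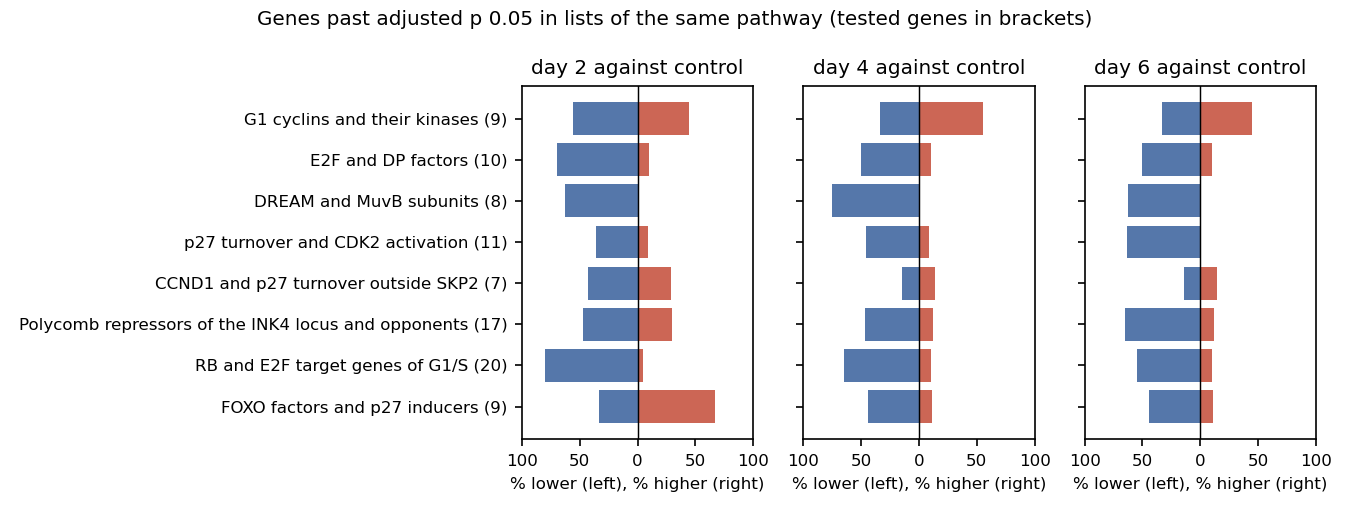
Percent of tested genes in each of 8 lists that were lower (bars to the left) or higher (bars to the right) than the control at an adjusted p under 0.05, at days 2, 4 and 6, with the number of genes tested in brackets. The 20 RB and E2F target genes fall from 16 lower at day 2 to 11 lower at day 6, and DREAM and MuvB subunits show 0 rises in each panel.

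The genes whose courses lay closest to a member were found among 9174 genes by the root mean square distance between group means on the log2 scale, each centred on its own mean over the 4 groups. For CDKN1B they were PPT1 (0.024), GPSM2 (0.0266) and MC1R (0.0319). PPT1, a lysosomal thioesterase, held 191 ± 11.0, 110 ± 7.55, 116 ± 10.8 and 96.4 ± 2.88 CPM in controls and at days 2, 4 and 6. For CDKN2B they were COL4A4 (0.0536), DCN (0.119) and SLC3A2 (0.13), a basement membrane collagen chain, the proteoglycan decorin and the heavy chain of amino acid transporters. Decorin held 126 ± 2.94, 117 ± 5.53, 45.7 ± 6.03 and 64.5 ± 4.32 CPM. For CDKN2C they were DEPDC1B (0.0898), RAB3IP (0.1) and PKN3 (0.109), and for CCND1 they were CLDN1 (0.076), APLP1 (0.0784) and COL6A1 (0.0935). APLP1, a relative of the amyloid precursor protein, held 7.51 ± 0.980, 27.5 ± 0.999, 33.7 ± 3.17 and 34.0 ± 2.42 CPM. These distances rest on 4 group means from the same 12 libraries.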

How the data were processed

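Messenger RNA was sequenced in 12 AC16 libraries, 3 per group, which, per the labels, were made with the NEBNext Ultra RNA kit. The authors deposited raw counts per gene for 60607 Ensembl identifiers, of which 60437 paired with a symbol and 58361 with a GENCODE release 29 position. The submitters' processing notes name fastp 0.23.2, Trimmomatic 0.38, STAR 2.7.8, HTSeq 0.13.5 and GRCh38.p13, without roles; the strand setting is not given in the sources used here.

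Counts were scaled by TMM, filtered with filterByExpr (minimum count 10, minimum total 15; 17320 genes kept) and fitted at once over 12 libraries with edgeR 4.0.16 (R 4.3.3; glmQLFTest, 8 residual degrees of freedom, common biological variation coefficient 0.0887). P-values were Benjamini-Hochberg adjusted over all 17320 genes with a threshold of 0.05. Standard errors (SE) are the size of the log2 change over the square root of F. Fold changes are fitted values and can differ slightly from ratios of mean CPM. The fit was tested on simulated counts. CPM per kilobase used the union of GENCODE exons, and promoter windows came from RefSeq (GRCh38.p14).

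The members and gene lists were chosen with earlier results of these data known. Besides the members, up to 4 genes with the smallest p for any difference were named per list, and the 3 nearest genes for each of 4 members. HMGA2 came from a list of arrest genes. Libraries sharing a replicate number did not deviate together. Alternatives were other scalings, filters, DESeq2 1.42.0, a replicate block, the compared groups alone and each library left out. No 2 libraries of the same group were close enough in counts to be copies. Libraries of different groups were not compared in this way.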

Additional observations from a re-analysis of the deposited data

Results flagged for a closer look

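The members below differed between exposures by a direct edgeR test of one exposure against another, with Benjamini-Hochberg adjustment over all genes; the values are log2 changes with their SE.

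From day 2 to day 4, CDKN2B (-1.49 ± 0.098, adjusted p = 2.24e-11) and CDKN2A (-0.42 ± 0.14, 0.0357) fell. Over the same interval CDKN2D (1.03 ± 0.21, 0.000473), CDKN2C (0.78 ± 0.11, 4.02e-06), RBL2 (0.64 ± 0.085, 2.02e-06), CCND1 (0.42 ± 0.071, 4.6e-05) and RBL1 (0.38 ± 0.10, 0.00532) rose. The CDKN2A call did not hold in 4 of 6 fits that left out one library (log2 -0.57 to -0.21), with library totals (0.0865) or with the compared groups alone (0.118).

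From day 2 to day 6, CDKN2B (-1.20 ± 0.096, adjusted p = 4.91e-10) and CDKN2A (-0.71 ± 0.15, 0.000889) were again lower. RBL2 (0.65 ± 0.085, 1.24e-06), RBL1 (0.42 ± 0.10, 0.00156), CDKN2C (0.42 ± 0.11, 0.00349), CCND1 (0.40 ± 0.071, 7.32e-05) and RB1 (0.33 ± 0.11, 0.0173) were higher. Both sets of differences share the day 2 libraries. Between days 4 and 6, CDKN2C (-0.36 ± 0.10, 0.038) was the single member past the threshold. That call was lost in 5 of 6 fits that left out one library, with library totals (0.101) and with no low-count filter (0.0795), and fitting those groups alone called 4 members.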

How the results depend on the processing

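Over the 9 tested members and 6 pairwise comparisons, 696 of 756 alternative values kept their side of the threshold, 43 lost the call and 17 gained it. Of these values, 0 reversed a direction called in either fit. Differences called in neither fit could change sign, as for CDKN2A at day 2 against the control (log2 -0.27 to 0.19). For 39 of the 54 results every alternative left the call as it was, among them CCND1, CDKN1B, CDKN2B and CDKN2C against the control at each exposure at which they passed. Calls that changed with another scaling, filter or set of groups, or with one library left out, are given with each gene. Between days 4 and 6, where 1174 genes and 1 member changed, fitting those groups alone gave 1837 genes and 4 members, and leaving out control replicate 2 with day 2 replicate 3, chosen after seeing the data, gave 2027 and 4. With no low-count filter 0 members changed there; by edgeR, 2 were higher at an unadjusted p under 0.05 in the reported fit, and DESeq2 called 1 member. Leaving out one library gave 572 to 871 genes and 0 to 1 members, with the gene count down by over 1.5 times without day 4 replicate 1 (572) or 3 (685) or day 6 replicate 1 (611) or 2 (580). At day 4 against the control, 4 to 7 members changed with one library left out, 4 of them without day 4 replicate 1.

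Replicate numbers did not pair the libraries: of 18 pairs of libraries with the same number in different groups, 0 had deviations correlated above 0.1 (r from -0.171 to 0.0963). With the replicate number as a block, 6, 6 and 7 members changed at days 2, 4 and 6 against the control, from 7950, 6035 and 7296 genes, and RBL2 at days 4 and 6 (adjusted p = 0.0727 and 0.0541) and the any-difference test of RB1 (0.0604) no longer passed. Depth limited CDKN1C most, with 6 counts in 12 libraries.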
